A study of Mus musculus with 12 samples.

Results

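Regions whose centre lay within 2 kb of a transcription start, outside annotated exons, were examined in a ChIP-seq survey of histone H3 dimethylated at lysine 9 (H3K9me2) in mouse prefrontal cortex. They were chosen from the autosomal regions of 2 deposited comparison tables by the authors' distance to the closest start, at most 2000 bp, and by a region centre placed between genes, in no gene or in an intron. The rule gave 1467 of 33787 regions (4.34%) in the table that compares FAD with WT mice and 1830 of 43680 (4.19%) in the table that compares FAD-BIX with FAD mice. A further 518 and 674 autosomal regions lay as close to a start but had their centre in an exon or untranslated region and were left out.

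FAD-BIX mice were familial Alzheimer's disease (FAD) animals treated with BIX01294, which blocks EHMT1 and EHMT2, both H3K9 methyltransferases. FAD mice carried the same disease genotype without the compound, and WT mice were wild type. All were C57BL/6 mice aged 5 to 6 months, with 2 mice per group, and each mouse gave a ChIP and an input library from cross-linked prefrontal punches, which hold all cell types of that tissue. The labels name neither the FAD line nor its transgenes, and they give neither dose nor vehicle for the compound, so the FAD mice are the only reference for the treated ones. The survey asked where this mark lies in the 3 groups.

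H3K9me2 is laid down mainly by EHMT1 and EHMT2, which work as a pair, and is associated with repressed or silent chromatin. In neurons it is known for covering broad domains that hold silent, lineage-foreign gene clusters such as olfactory receptors, while the CpG-rich promoters of active genes usually lack it.

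ChIP libraries held about 20450000 to 26580000 reads and inputs 13920000 to 23760000 reads. Start-near regions took only 0.112% to 0.256% of each ChIP library, at a median of 11 to 21 reads per start-near region in ChIP and 2 to 5 in input libraries, so that most single regions rest on few reads. The library labelled FAD 1 differed from FAD 2 and both FAD-BIX libraries at Thy1. The promoter of this gene drives the transgenes of several widely used familial Alzheimer lines, but the labels do not say whether these mice carry one. The region of 2190 bp over the Thy1 start (chr9:44042877-44045067) held 3757 and 4100 ChIP reads in FAD-BIX mice, and 4 and 5503 reads in the libraries labelled FAD 1 and FAD 2. The inputs showed the same pattern, with 2690 and 1314 reads in FAD-BIX mice, against 31 and 2697 in FAD mice. A shorter region at -1150 bp from the start, that is upstream of it (chr9:44042078-44042390) had 4 and 839 ChIP reads in FAD mice, against 5 and 2 in WT mice. Both FAD-BIX mice and FAD 2 thus held many extra reads in ChIP and input alike, and the library labelled FAD 1 had as few as WT mice at the shorter region. It also carried ChIP signal at heart muscle genes. Regions whose closest start belongs to 7 of 20 such genes (Actc1, Ankrd1, Mb, Myh6, Nppa, Nppb and Ryr2) summed to 72 and 49 ChIP reads in FAD-BIX mice, against 1121 in FAD 1 and 133 in FAD 2, and the rest of the list had no region. In the comparison of FAD with WT, 6 of the 20 genes summed to 923 and 128 reads in FAD mice, against 77 and 68 in WT mice. The cause was not tested, and each comparison below is also given without this library.

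The start-near genes had mostly CpG-poor promoters, and clustered, tissue-restricted families were the largest groups among those with a name. In the table of FAD against WT, the 1467 regions lay at 1358 starts, and 362 regions (24.7%) had a gene symbol, against 24.9% of the other autosomal regions. In the table of FAD-BIX against FAD, 430 of 1830 regions (23.5%) at 1665 starts had one, against 24.8% elsewhere. Removing predicted genes, clones and pseudogenes left 259 and 307 named genes. Of the symbols found in RefSeq, 91.9% of 307 and 90.3% of 372 were protein-coding.

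Promoter windows of 300 bases, 250 before and 50 after the start, came from RefSeq (GRCm38.p6). They are shown for start-near genes named by the rule for called, highest-ratio or repeatedly found regions, 3 whose region covers the window wholly or in large part and 2 whose region lies upstream of a window with many CpGs. Capitals mark each CpG.
Olfr1337, chr4:118782537-118782836, minus strand: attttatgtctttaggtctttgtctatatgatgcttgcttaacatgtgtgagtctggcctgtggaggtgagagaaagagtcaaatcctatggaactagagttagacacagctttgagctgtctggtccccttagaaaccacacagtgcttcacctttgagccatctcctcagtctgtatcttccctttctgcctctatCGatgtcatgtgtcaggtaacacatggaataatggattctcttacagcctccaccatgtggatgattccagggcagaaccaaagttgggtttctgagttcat
Vmn2r117, chr17:23479548-23479847, minus strand: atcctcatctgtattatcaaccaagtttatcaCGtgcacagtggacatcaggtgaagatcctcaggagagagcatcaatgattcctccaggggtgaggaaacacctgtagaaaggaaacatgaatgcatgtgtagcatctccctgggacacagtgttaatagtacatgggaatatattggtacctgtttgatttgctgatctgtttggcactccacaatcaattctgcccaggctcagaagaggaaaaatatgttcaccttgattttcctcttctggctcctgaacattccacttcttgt
Lce1c, chr3:92678997-92679296, plus strand: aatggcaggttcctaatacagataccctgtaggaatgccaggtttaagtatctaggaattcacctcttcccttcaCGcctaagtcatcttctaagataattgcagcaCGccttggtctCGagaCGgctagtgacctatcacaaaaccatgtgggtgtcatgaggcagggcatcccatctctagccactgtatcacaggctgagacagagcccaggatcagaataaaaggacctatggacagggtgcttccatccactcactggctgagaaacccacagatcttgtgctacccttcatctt
Hjurp, chr1:88277530-88277829, minus strand: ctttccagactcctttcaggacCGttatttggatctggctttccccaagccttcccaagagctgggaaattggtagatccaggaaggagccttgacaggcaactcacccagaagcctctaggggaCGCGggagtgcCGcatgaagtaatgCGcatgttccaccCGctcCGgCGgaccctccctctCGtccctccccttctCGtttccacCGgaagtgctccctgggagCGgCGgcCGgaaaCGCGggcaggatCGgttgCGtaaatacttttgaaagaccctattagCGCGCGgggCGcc
Nop58, chr1:59684756-59685055, plus strand: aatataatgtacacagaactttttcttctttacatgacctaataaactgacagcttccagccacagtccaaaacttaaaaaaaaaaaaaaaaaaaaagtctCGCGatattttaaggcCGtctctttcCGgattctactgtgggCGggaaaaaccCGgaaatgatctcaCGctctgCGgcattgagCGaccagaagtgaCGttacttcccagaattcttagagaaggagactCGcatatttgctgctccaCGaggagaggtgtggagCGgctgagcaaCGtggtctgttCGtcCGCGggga
The Olfr1337 and Vmn2r117 windows, of an olfactory and a vomeronasal receptor, were covered over all 300 bases and hold 1 CpG each. The window of Lce1c, a gene of the late cornified envelope of skin, was covered over 232 bases and holds 4. Hjurp encodes the chaperone that loads the centromeric histone and Nop58 a core protein of box C/D small nucleolar RNPs. Their windows hold 22 and 17 CpGs, and their regions were centred at -766 and -976 bp from the start and shared no base with the window.

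The windows above are picked examples and do not show that regions avoid windows with many CpGs. Myo3a, with 16 CpGs, was covered over all 300 bases in the table of FAD-BIX against FAD. The window of 4933416C03Rik, with 22, was covered over 196 bases in that of FAD against WT. Conversely, the windows of Mroh2a, with 0 CpGs, and Trpm8, with 1, shared no base with their regions. Among the protein-coding start-near genes, 239 of 290 (82.4%) and 283 of 343 (82.5%) had a window. Their median GC content was 45.3% and 44%, against 56.7% over the 16457 autosomal protein-coding windows of the RefSeq table, which covers 79.6% of 20665 such genes. The ratio of observed to expected CpG had a median of 0.14 in the table of FAD against WT and 0.139 in that of FAD-BIX against FAD, against 0.586 over all windows. Only 17 (7.11%) and 21 (7.42%) start-near windows were CpG-rich, here a CpG ratio above 0.6 with GC above 50%, against 46.2% of all windows. No CpG at all was found in 16.3% and 19.1% of them, against 4.99% of all windows. None of the start-near olfactory receptor windows (57 and 79) was CpG-rich, nor was any of the 938 windows of this family. Searched on both strands, the TATA box letters TATAAA occurred in 26.4% and 26.5% of start-near windows, against 13.5% of all windows. GGGCGG, the GC box bound by Sp1, occurred in 11.7% and 12.4%, against 46.8% of all windows. Such a match is a description of the window, not a binding site. Windows of genes whose regions within 2 kb all had exon or untranslated-region centres (54 and 63) had a similar median GC content of 44.5% and 44.3% and CpG ratio of 0.173 and 0.205, held TATAAA in 31.5% and 31.7%, had no CpG in 16.7% and 19%, and were CpG-rich in 14.8% and 17.5%. Those of genes with regions only beyond 2 kb (2363 and 2683) lay between the start-near windows and all windows, with a median GC content of 51.3% in both tables, a median CpG ratio of 0.373 and 0.378 and CpG-rich shares of 32.6% and 33.1%. None of these differences was tested.

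**Figure D1:**
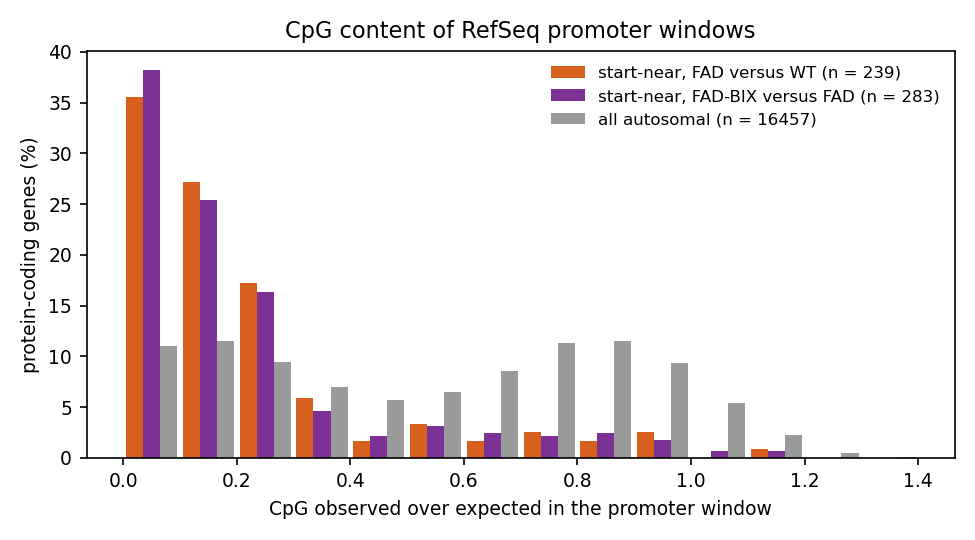
Share of protein-coding genes (vertical axis, %) by the ratio of observed to expected CpG in the 300-base promoter window (horizontal axis, bins of 0.1, the last open upwards). Orange and purple bars are the start-near genes of the 2 tables and grey bars all autosomal windows; start-near genes crowd at the low end, with medians of 0.14 and 0.139 against 0.586.

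Only a minority of regions lay on the start itself. In the table of FAD against WT, 755 regions were centred upstream and 711 downstream, and 150 (10.2%) spanned the start. In the table of FAD-BIX against FAD these counts were 956, 872 and 186 (10.2%). Per 500 bp, the start-near regions were most numerous just upstream of the start, at 208 and 269. With exon and untranslated-region centres included, the 500 bp just downstream held 495 and 621 regions. Region width did not set them apart, with medians of 334 and 326.5 bp, against 329 and 325 bp elsewhere. The 2000 bp limit fell at no visible edge, with 55 and 70 regions in the last 100 bp inside it and 66 and 82 in the next 100 bp. Against the RefSeq windows, 36 of 262 and 40 of 308 regions overlapped the window of their own gene. The file's start lay within 100 bp of the RefSeq start for 169 of 241 and 197 of 286 genes, so for the others the window marks another start than the one used for the distance.

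**Figure D2:**
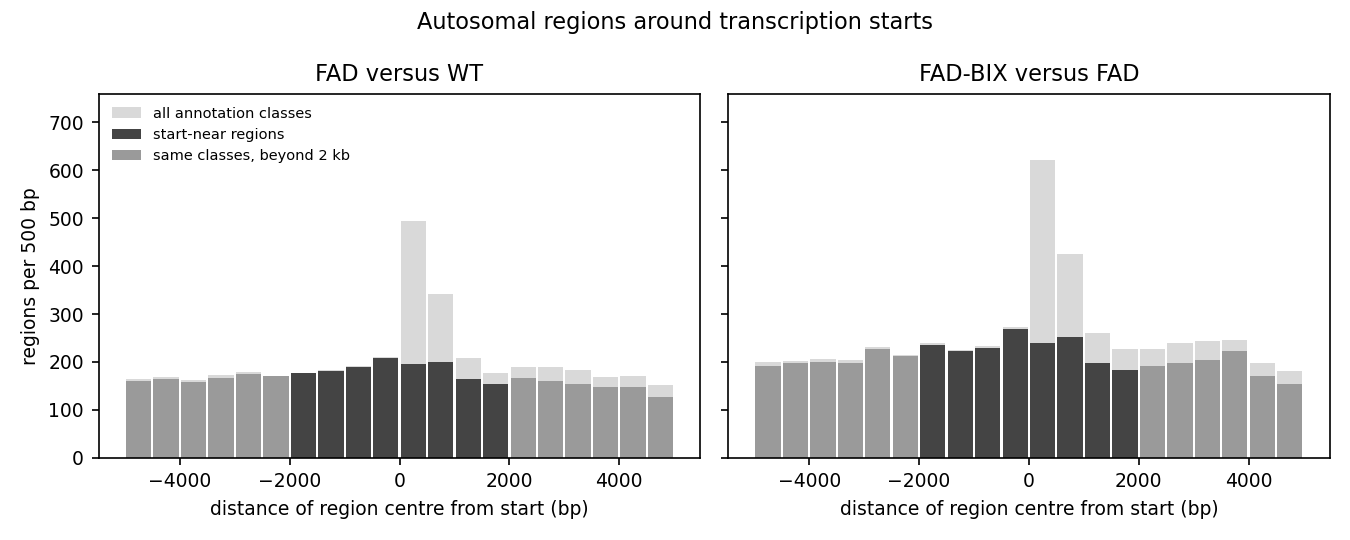
Number of autosomal regions per 500 bp (vertical axis) by distance of the region centre from the closest start (horizontal axis, bp, negative upstream), in the tables of FAD against WT (left) and FAD-BIX against FAD (right). Black bars are the start-near regions, mid-grey bars the same annotation classes beyond 2 kb and pale bars all classes; black bars peak at 208 and 269 just upstream of the start, pale bars at 495 and 621 just downstream.

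Olfactory receptor genes, odour receptors of nasal sensory neurons, were the most frequent named family. They were the closest start of 65 start-near regions at 63 genes in the table of FAD against WT, which is 18% of the regions with a symbol, against 6.6% of such regions at any distance. In the table of FAD-BIX against FAD there were 88 regions at 87 genes, or 20.5%, against 6.48% at any distance. These were 4.44% and 6.13% of the 1420 olfactory receptor genes in RefSeq. Clusters of detoxification genes followed, with 19 regions at 18 genes (5.25%, against 1.81% at any distance) and 18 regions at 17 genes (4.19%, against 1.63%). They include Ugt1a1, which conjugates bilirubin, and cytochromes P450 such as Cyp2d34. Skin and defence clusters (Lce, Sprr, Krtap and others) gave 12 regions (3.31%, against 1.53%) and 13 (3.02%, against 1.55%). Zinc-finger genes gave 11 (3.04%, against 1.85%) and 13 (3.02%, against 1.8%). Germline genes such as Obox5 and the transition protein Tnp1 gave 4 (1.1%, against 0.695%) and 7 (1.63%, against 0.662%). Vomeronasal receptors, which detect pheromones, stayed near their share at any distance, with 7 (1.93%, against 1.85%) and 9 (2.09%, against 1.59%). Other families were gathered after their members had been seen. Antigen receptor segments had 12 and 16 regions (3.31% and 3.72%, against 0.995% and 1.05% at any distance). The placental prolactins and pregnancy-specific glycoproteins had 7 and 8 (1.93% and 1.86%, against 0.336% and 0.401%). The secretoglobins had 4 and 6 (1.1% and 1.4%, against 0.168% and 0.159%). A region in or beside a short gene is necessarily near its start, and the part of gene length in these shares was not tested.

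**Figure D3:**
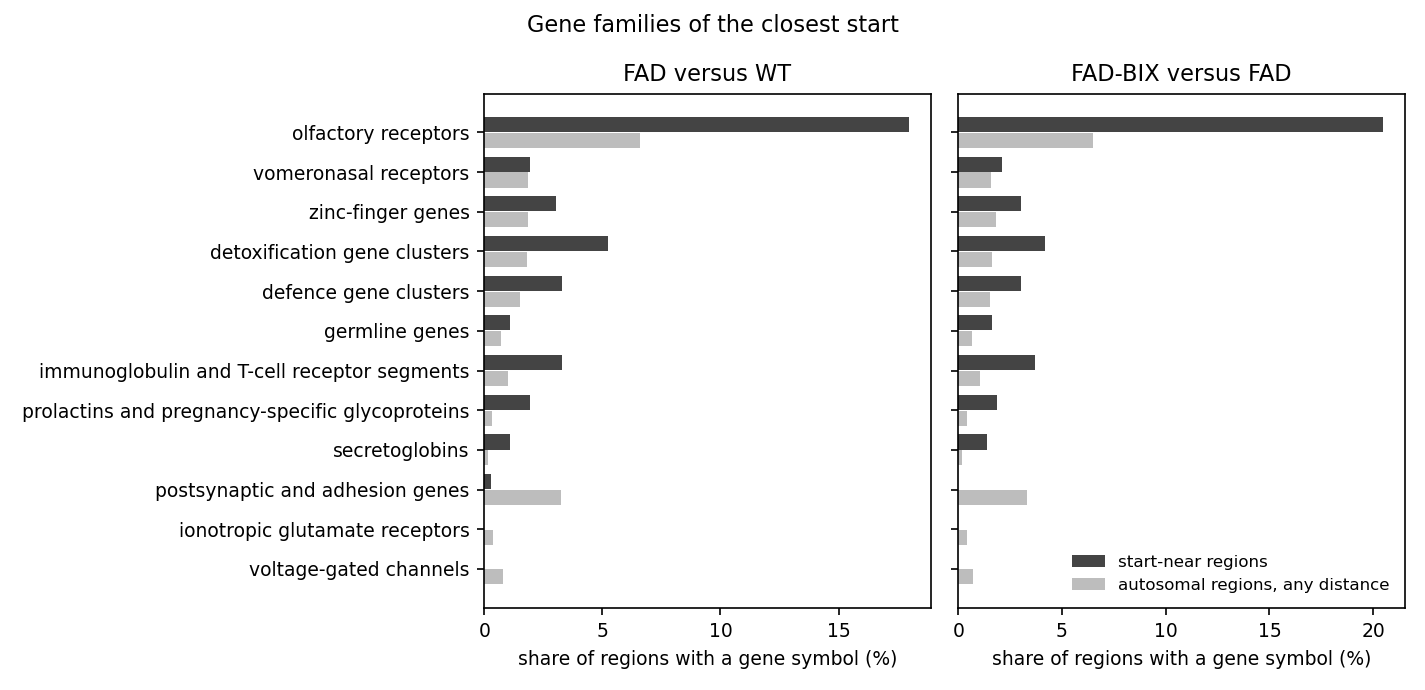
Share of regions with a gene symbol (horizontal axis, %) whose closest start belongs to each gene family (vertical axis), in the tables of FAD against WT (left) and FAD-BIX against FAD (right). Black bars are start-near regions and grey bars autosomal regions at any distance; olfactory receptors take 18% and 20.5% of the black bars, and ionotropic glutamate receptors and voltage-gated channels none.

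Synaptic genes were nearly absent from the start-near set. Postsynaptic and adhesion genes were the closest start of 3.24% and 3.33% of named regions at any distance, but of 1 start-near region in the table of FAD against WT, at Cntn6, a neuronal contactin, and of 0 in that of FAD-BIX against FAD. No start-near region in either table had the start of an ionotropic or metabotropic glutamate receptor, a voltage-gated channel, or a presynaptic, activity-regulated, H3K9 methylation, Alzheimer disease, ribosomal protein, small RNA, housekeeping or Hox gene of the lists used. At any distance, ionotropic glutamate receptors took 0.384% and 0.41% of named regions, voltage-gated channels 0.791% and 0.709%, and ribosomal protein genes 0.396% and 0.429%. Each other list took at most 0.12% and 0.177%, and small RNA and housekeeping genes had no region at all, so their absence says little. Starts without a symbol could not be placed in a list. Markers of astrocytes, oligodendrocytes, microglia, endothelium and red blood cells were also absent, beside at most 0.108% and 0.112% at any distance. Thy1 was the only cortical neuron marker.

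Most start-near regions belonged to starts without a symbol, 1105 of the regions in the table of FAD against WT and 1400 in that of FAD-BIX against FAD. Genes at these starts were short, with a median length of 694 and 649 bp, against 6591 and 6310 bp for those with a symbol, and 26.6% and 26.5% of them were under 200 bp. Of such regions, 222 (20.1%) and 278 (19.9%) lay inside a gene that has a symbol. The hosts with at least 4 such regions in a table were Dlg2, a postsynaptic scaffold, with 5 in FAD against WT and 6 in FAD-BIX against FAD, Epha6, an ephrin receptor, with 4 and 5, Nkain2, a sodium pump partner, with 4 and 4, and Kcnip4, a potassium channel partner, with 3 and 5. Cntnap2, a neurexin-family adhesion gene, Dpp10, another potassium channel partner, and the syntrophin gene Sntg1 had 3 and 4 each, and the neuronal catenin gene Ctnna2 had 2 and 4. These regions count as start-near through the small unnamed gene in the host's intron or at its edge, not through the start of the host gene.

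Signal over input was modest, and FAD 2 stood above every other library. Per mouse, the 1830 regions had a median ChIP/input ratio, on the log2 scale, of 0.94 and 1.49 in FAD-BIX mice, against 1.01 and 2.04 in FAD mice. Over the 1467 regions it was 1.11 and 2.2 in FAD mice, against 0.96 and 0.76 in WT mice. FAD-BIX and FAD mice overlapped, and both FAD mice lay above both WT mice, FAD 1 by little. A ratio of at least 2 was reached by 48.5% and 62.6% of regions in FAD-BIX mice, 51.5% and 78.6% in FAD mice of the same table, and 46% and 40.4% in WT mice. It was reached in all 4 mice of a table by 123 regions (8.38%, against 9.59% of other autosomal regions) and by 238 (13%, against 12.3%). Since the authors called the regions on ChIP signal, these ratios were not tested.

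Calls were rarely repeated between mice. The authors had called 353 (19.3%) and 483 (26.4%) of the 1830 regions in the 2 FAD-BIX libraries, against 179 (9.78%) and 993 (54.3%) in the FAD libraries. Of the 1467 regions, 180 (12.3%) and 983 (67%) were called in FAD libraries, against 227 (15.5%) and 177 (12.1%) in WT libraries. These shares lay close to those of the other autosomal regions, at 22.5% and 25.9% in FAD-BIX libraries, against 8.8% and 50% in the FAD libraries of that table, and at 11.4% and 64.5% in FAD libraries, against 17.5% and 12.2% in WT libraries. FAD 2 alone contributed 912 (62.2%) and 879 (48%) regions called nowhere else in the table. Only 79 (5.39%, against 5.01% of other autosomal regions) and 150 (8.2%, against 6.44%) were called in 2 or more libraries, and 5 in each table in all 4. Shares of other autosomal regions called in FAD 2 alone or in all 4 libraries are not given here. Those counts therefore do not set start-near regions apart. In a mouse where a region was not called, the median log2 ratio was still above 0, at 0.61 and 0.93 in FAD-BIX mice, 0.89 and 1.12 in FAD mice of the same table, and 0.69 and 0.61 in WT mice.

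Start-near regions lay close to other autosomal regions in ChIP over input. Its per-mouse median was lower at start-near regions in 5 of 6 mice and tied in WT 1, by a mean of only 0.06 ± 0.07 (SD, n = 6 mice), a difference of -0.06 with an adjusted p of 0.0625 in a two-sided exact sign-flip permutation test over mice. By mouse the difference was -0.17 and -0.02 in FAD-BIX, -0.02 and -0.03 in FAD, and 0 and -0.11 in WT mice. Input density, in RPM per kb on the log2 scale, was higher by 0.11 ± 0.05 at start-near regions in 6 of 6 mice (exact p = 0.0312, the smallest that 6 mice allow, adjusted 0.0625), and ChIP density by 0.05 ± 0.03 in 5 of 6 (exact p = 0.0625, adjusted 0.0625). With at least 10 ChIP reads asked of every library, the ratio difference was -0.13 with an adjusted p of 0.0312 in the same exact test.

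**Figure D4:**
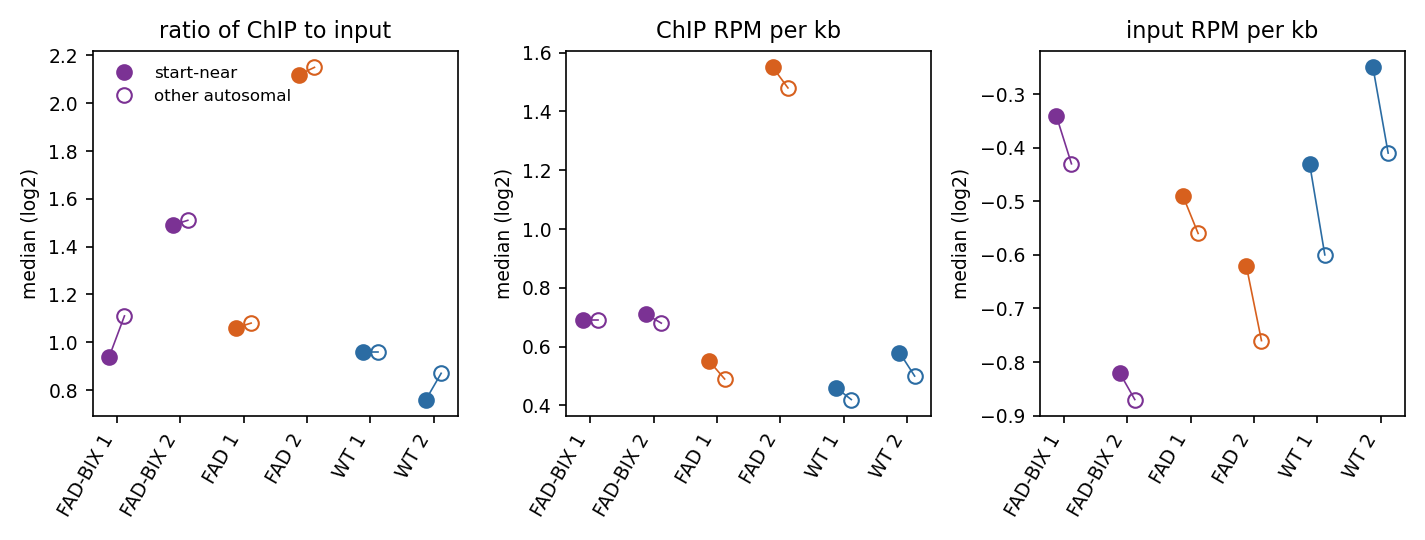
Median ratio of ChIP to input, ChIP density and input density (vertical axes, log2; densities in RPM per kb) at start-near regions (filled) and other autosomal regions (open) in each of the 6 mice (horizontal axis). FAD values are means over the 2 tables; the line within each mouse is short beside the spread between mice, with a mean ratio difference of -0.06.

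The regions with the most ChIP reads over named genes had high inputs as well. Duxf3 lies in a tandem array related to the early-embryo factor Dux, and its region at chr10:58232452-58232905 spanned the start, with the centre 3 bp upstream. It had 143 and 109 ChIP reads in the treated FAD-BIX mice, 138 and 186 in the FAD mice and 107 and 150 in the WT mice. Its inputs held 63 and 19, 20 and 88, and 61 and 81 reads in the same order of mice. The intronic region of Sfi1, a centriole gene, at chr11:3192012-3192573 had 345 and 341 ChIP reads in the treated FAD-BIX mice, 336 and 534 in the FAD mice and 316 and 460 in the WT mice, with 99 to 275 reads in the inputs. Reads of tandem copies such as Duxf3 could be split between copies by the authors' mapping, so their levels are uncertain, as are those of other families of close paralogs named here (Usp17l, Igkv, Sprr2, Lce, Scgb and receptor genes).

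A run of 4 start-near genes on chromosome 1 recurred in both tables. Ugt1a1 had 62 and 65 ChIP reads in the treated FAD-BIX mice, 75 and 108 in the FAD mice and 63 and 78 in the WT mice. Mroh2a had 88 and 75 reads in the treated FAD-BIX mice, 88 and 148 in the FAD mice and 99 and 111 in the WT mice. Hjurp had 46 and 38 reads in the treated FAD-BIX mice, 35 and 68 in the FAD mice and 35 and 41 in the WT mice. Trpm8, the cold-sensing channel of sensory neurons, had 34 and 28 reads in the treated FAD-BIX mice, 38 and 56 in the FAD mice and 30 and 45 in the WT mice. Their inputs held 25 to 54 reads for Ugt1a1, 8 to 53 for Mroh2a, 5 to 29 for Hjurp and 5 to 32 for Trpm8. In WT 2 the ChIP level lay below the input, at 2.97 against 3.17 RPM for Ugt1a1, 1.58 against 1.73 RPM for Hjurp and 1.73 against 1.9 RPM for Trpm8. FAD 2 had the highest count at each of the 4 genes, and the FAD 1 count lay within the range of the other groups.

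Spink8, a serine protease inhibitor gene, had 30 and 49 ChIP reads in the treated FAD-BIX mice, 41 and 33 in the FAD mice and 19 and 22 in the WT mice over chr9:109814647-109815278, with 5 and 0, 2 and 0, and 13 and 7 input reads. Ltv1, a ribosome assembly factor, had 20 and 34 reads in the treated FAD-BIX mice, 19 and 34 in the FAD mice and 30 and 12 in the WT mice over chr10:13193687-13194156, with 0 to 4 input reads. Spaca1, a sperm acrosome gene, had 22 and 15 reads in the treated FAD-BIX mice, 16 and 21 in the FAD mice and 18 and 17 in the WT mice over chr4:34051980-34052255, again with 0 to 4 input reads. The groups overlapped at Ltv1 and Spaca1, while at Spink8 both FAD-BIX and both FAD counts lay above both WT counts. At the 2 genes of the sequences above, Olfr1337 had 12 and 38 reads in FAD, against 20 and 38 in WT mice, and Lce1c had 16 and 41 in FAD, against 23 and 25 in WT mice.

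Between the tables, 1106 start-near regions matched at 50% reciprocal overlap, which is 75.4% of those in the table of FAD against WT and 60.4% of those in the table of FAD-BIX against FAD, and 194 of them had a named gene that is not predicted. The FAD libraries are the same in both tables. A ratio of at least 2 in all 6 mice was found at 33 of the 1106 (2.98%). Of these, 29 were at unnamed starts, and the others were at Ltv1, Spaca1, Olfr780 and the predicted Gm8332. The strongest lay at chr7:43446954-43447194, at -999 bp from an unnamed start, with 114 and 105 ChIP reads in the treated FAD-BIX mice, 246 and 160 in the FAD mice and 152 and 101 in the WT mice, against 0 to 7 reads in any input. Its call by the authors came from FAD 1 alone. A region at chr9:102127680-102127991, centred 52 bp upstream of an unnamed start, had 144 and 87 reads in the treated FAD-BIX mice, 231 and 137 in the FAD mice and 235 and 95 in the WT mice, against 2 to 10 in the inputs. Just 4 of the 1106 were called in all 6 mice. The largest, chr11:3197360-3200049, had 2157 and 2342 reads in the treated FAD-BIX mice, 2404 and 2641 in the FAD mice and 2153 and 3084 in the WT mice, with 477 to 892 input reads. Also called in all 6, chr11:3192989-3195244 and chr11:3195481-3197136 lie just beside it, so these are not separate sites. Neither neighbour had a ratio of at least 2 in all 6 mice, and their inputs held 369 to 1072 reads. The corresponding shares of other autosomal regions are not given here, so the counts of matched regions do not set start-near regions apart.

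The question in comparing FAD with WT was whether the disease genotype moves the mark. No start-near region was called. edgeR's quasi-likelihood test on counts, adjusted by Benjamini-Hochberg over all regions of the table, called 0 of 1256 start-near regions tested (smallest adjusted p = 0.832), beside 0% of all 27778 tested. The median log2 fold was 0.01, with the middle 50% from -0.46 to 0.4, and over all regions it was also 0.01. Trimmed-mean scaling centres the folds over all regions, so this median cannot show a shift shared by most regions. At an unadjusted p under 0.05, 13 start-near regions (1.04%) were higher, beside 0.918% of all, and 54 (4.3%) lower, beside 4.97% of all. DESeq2, and limma on the ratio of ChIP to input, called 0 as well. Before adjustment DESeq2 put 6 higher and 36 lower, and limma 79 higher and 11 lower. With library totals in place of the trimmed-mean scaling, the unadjusted counts were 33 higher and 6 lower, and the median moved to 0.62 (0.64 over all regions). By the p-values of the authors' deposited table, 41 start-near regions (2.79%) were under 0.05 with a positive log2 fold, beside 2.14% of all, and 5 (0.341%) with a negative one, beside 0.533%.

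Families shared this picture. Of the start-near olfactory receptor regions 50 were tested, of which edgeR before adjustment put 0 higher and 1 lower (Olfr250, with 4 and 2 reads in FAD, against 19 and 12 in WT mice, a gene named after its value was seen). Detoxification (12 tested), defence (10) and zinc-finger genes (10) had none in either direction, and vomeronasal receptors had 1 lower of 7. Among all 301 regions with a symbol, 1 was higher and 10 were lower. The median log2 fold was -0.05 for olfactory receptors, -0.21 for detoxification genes and -0.07 for all with a symbol.

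The named genes below had the smallest unadjusted p among better-covered regions with the same direction in both replicate numbers. The labels do not say that these numbers pair the mice, and no gene passed the adjusted threshold. Vmn1r2, a vomeronasal receptor, had 15 and 17 ChIP reads in FAD, against 25 and 39 in WT mice (log2 fold -1.38 ± 0.46 SE). Nop58, over a region at -1336 bp and next to the one described above, had 12 and 5 reads in FAD, against 24 and 19 in WT mice (log2 fold -1.66 ± 0.67 SE). Neither pair of groups overlapped in reads. At the neighbouring Nop58 region at -976 bp the order was opposite, with 17 and 21 reads in FAD, against 11 and 13 in WT mice. Ins2, an insulin gene of pancreatic beta cells, had 16 and 8 reads in FAD, against 21 and 19 in WT mice (log2 fold -1.06 ± 0.62 SE). Other Ins2 regions did not share this order. The one at 1827 bp had 7 and 22 reads in FAD, against 7 and 5 in WT mice. The one at 742 bp had 5 and 19 in FAD, against 15 and 11 in WT mice. Chil3, a macrophage chitinase-like gene, had 22 and 13 in FAD, against 27 and 31 in WT mice (-1.05 ± 0.54 SE). Tmprss11f, a serine protease gene, had 4 and 21 in FAD, against 22 and 20 in WT mice (-1.28 ± 0.6 SE). Its low value rests on FAD 1, and the groups overlap. An antibody kappa segment at chr6:67789019-67789511, Usp17le, a deubiquitinase of a tandem family, and the zinc-finger gene Zfp72 had log2 folds of -1.23 ± 0.65, -1.24 ± 0.66 and -0.79 ± 0.46 (SE), also with overlapping reads.

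On the higher side, Wdr7, a partner of the vesicle proton pump, had 26 and 22 reads in FAD, against 10 and 8 in WT mice over chr18:63707291-63707720 (log2 fold 1.04 ± 0.58 SE, unadjusted p = 0.102 by edgeR). Tpm3-rs7, a tropomyosin-related sequence, had 24 and 19 in FAD, against 8 and 9 in WT mice (0.99 ± 0.6 SE). In both, the FAD reads were more than those of either WT mouse and the inputs held 0 to 5 reads. Olfr1394 had 24 and 29 in FAD, against 13 and 14 in WT mice (0.57 ± 0.49 SE), and Cd209b, a lectin of macrophages, had 17 and 26, against 3 and 16 (0.78 ± 0.68 SE). The other 4 were Cyp2d34 (0.65 ± 0.59), Trdmt1, an RNA methyltransferase (0.48 ± 0.53), the skin gene Lce1f (0.49 ± 0.55) and Sval3 (0.48 ± 0.54), where the fold was close to or under its SE.

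Leaving out the library labelled FAD 1, 10 of 1432 start-near regions tested were called by edgeR (0.698%), beside 0.362% of all 32835, with 9 lower and Thy1 higher, and the lone FAD mouse is then assumed to vary as the WT mice do. Before adjustment 3 (0.209%) were higher, beside 0.171% of all, and 115 (8.03%) lower, beside 9.56%. The region at chr2:51730536-51731036, 1223 bp downstream of an unnamed start, held 100 and 18 reads in FAD, against 423 and 102 in WT mice (log2 fold -4.71 without FAD 1, adjusted p = 1.31e-07), and the only named gene among the lower ones was Mucl2, with 20 and 3 reads, against 16 and 34. At Mucl2 the omitted library lies within the WT range. Leaving out FAD 2 instead, 3 of 1326 were called (0.226%), beside 0.0694% of all 30275, all higher: a region in Myh6, the heart myosin gene, at chr14:54949791-54950605 with 275 and 25 reads in FAD, against 21 and 8 in WT mice, one in Cep85l at chr10:53343748-53344635 with 147 and 5, against 2 and 2, and one at the predicted Gm21190 with 57 and 13, against 7 and 6. Each of these rests on the library labelled FAD 1. With library totals, the region in Myh6 was the only one called with all 4 libraries (log2 fold 3.4, adjusted p = 0.00942 by edgeR), beside 0.0072% of all 27778. Leaving out either WT mouse, edgeR called 0, beside 0% of all. Before adjustment, 21 (1.48%) were higher and 57 (4.03%) lower without WT 1, beside 1.12% and 4.8% of all, and 28 (1.97%) higher and 87 (6.11%) lower without WT 2, beside 1.51% and 8.2%.

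In comparing FAD-BIX with FAD, which asks what the inhibitor does to the mark, no start-near region was called either. edgeR called 0 of 1373 tested (smallest adjusted p = 0.897), beside 0% of all 31055. The median log2 fold was -0.03, with the middle 50% from -0.44 to 0.46, and 0.03 over all regions, again centred by the trimmed-mean scaling. At an unadjusted p under 0.05, 42 (3.06%) were higher, beside 3.93% of all, and 26 (1.89%) lower, beside 1.18%. DESeq2, and limma on the ratio, called 0. Before adjustment DESeq2 put 25 higher and 6 lower, and limma 13 higher and 35 lower. With library totals the unadjusted counts turned to 3 higher and 33 lower, with a median of -0.38 (-0.34 over all regions), so the balance of directions depends on the scaling. By the p-values of the authors' deposited table, 8 start-near regions (0.437%) were under 0.05 with a positive log2 fold, beside 0.778% of all, and 27 (1.48%) with a negative one, beside 1.31%.

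Olfactory receptors made up 4 of the 42 higher regions, of 56 tested, and 0 of the lower ones. Over all start-near regions tested 3.06% were higher and 1.89% lower, beside 3.93% and 1.18% of all regions. With library totals 3 start-near regions of any kind were higher, so the family count depends on the scaling. The median log2 fold of olfactory receptors was 0.15 by the trimmed-mean scaling. Olfr816 had 28 and 30 reads in FAD-BIX, against 16 and 10 in FAD mice (log2 fold 1.52 ± 0.54 SE). Olfr97 had 15 and 40 in FAD-BIX, against 11 and 18 in FAD mice (1.35 ± 0.55 SE), so that its groups overlapped. Olfr773 had 15 and 20 in FAD-BIX, against 4 and 7 in FAD mice. Olfr774 and Olfr1313 had log2 folds of 1.09 ± 0.58 and 0.97 ± 0.53 (SE), while Olfr976 had 12 and 7 reads in FAD-BIX, against 22 and 33 in FAD mice (-1.09 ± 0.58 SE). Detoxification genes (13 tested), zinc-finger genes (10) and vomeronasal receptors (6) had none past an unadjusted p of 0.05, and defence genes (12) had 1 in each direction. Those were the skin genes Sprr4, with 27 and 28 reads in FAD-BIX, against 16 and 17 in FAD mice (1.14 ± 0.5 SE), and Sprr2a2, with 2 and 12, against 32 and 24 (-1.63 ± 0.69 SE).

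Vmn2r117, whose window is printed above, had 21 and 26 reads in FAD-BIX, against 14 and 17 in FAD mice, with 0 and 0 input reads against 0 and 2 (log2 fold 1.01 ± 0.52 SE). The deubiquitinase Usp17lb had 29 and 12, against 12 and 15 (1.02 ± 0.59 SE), with overlapping groups. On the lower side, Igkv6-15, an antibody segment, had 7 and 5 reads in FAD-BIX, against 22 and 28 in FAD mice (-1.62 ± 0.65 SE). Pcdhga5, a clustered protocadherin of neuronal surface identity, had 6 and 8, against 26 and 20 (-1.34 ± 0.66 SE), over an intronic region 1921 bp downstream of its start. Serpina3m, a serine protease inhibitor, had 7 and 9, against 20 and 28 (-1.15 ± 0.62 SE). The secretoglobin Scgb2b2 had 12 and 5, against 19 and 26 (-0.96 ± 0.64 SE). In each of these 4, both FAD-BIX mice lay below both FAD mice, and no adjusted p was under 0.897.

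Of the genes named in either comparison, 3 appeared in both, and both comparisons use the same FAD libraries. Vmn1r2 had 23 and 22 reads in treated FAD-BIX mice, against 14 and 17 in FAD mice (log2 fold 0.95 ± 0.53 SE), over bounds slightly narrower than in the table of FAD against WT. Olfr1394 had 11 and 9 in treated FAD-BIX mice, against 24 and 29 in FAD mice (-0.98 ± 0.57 SE), and Tpm3-rs7 had 7 and 10 in treated FAD-BIX mice, against 24 and 19 in FAD mice (-0.96 ± 0.64 SE). A high or low FAD value enters both comparisons with opposite sign, so these pairs of folds are not independent.

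**Figure D5:**
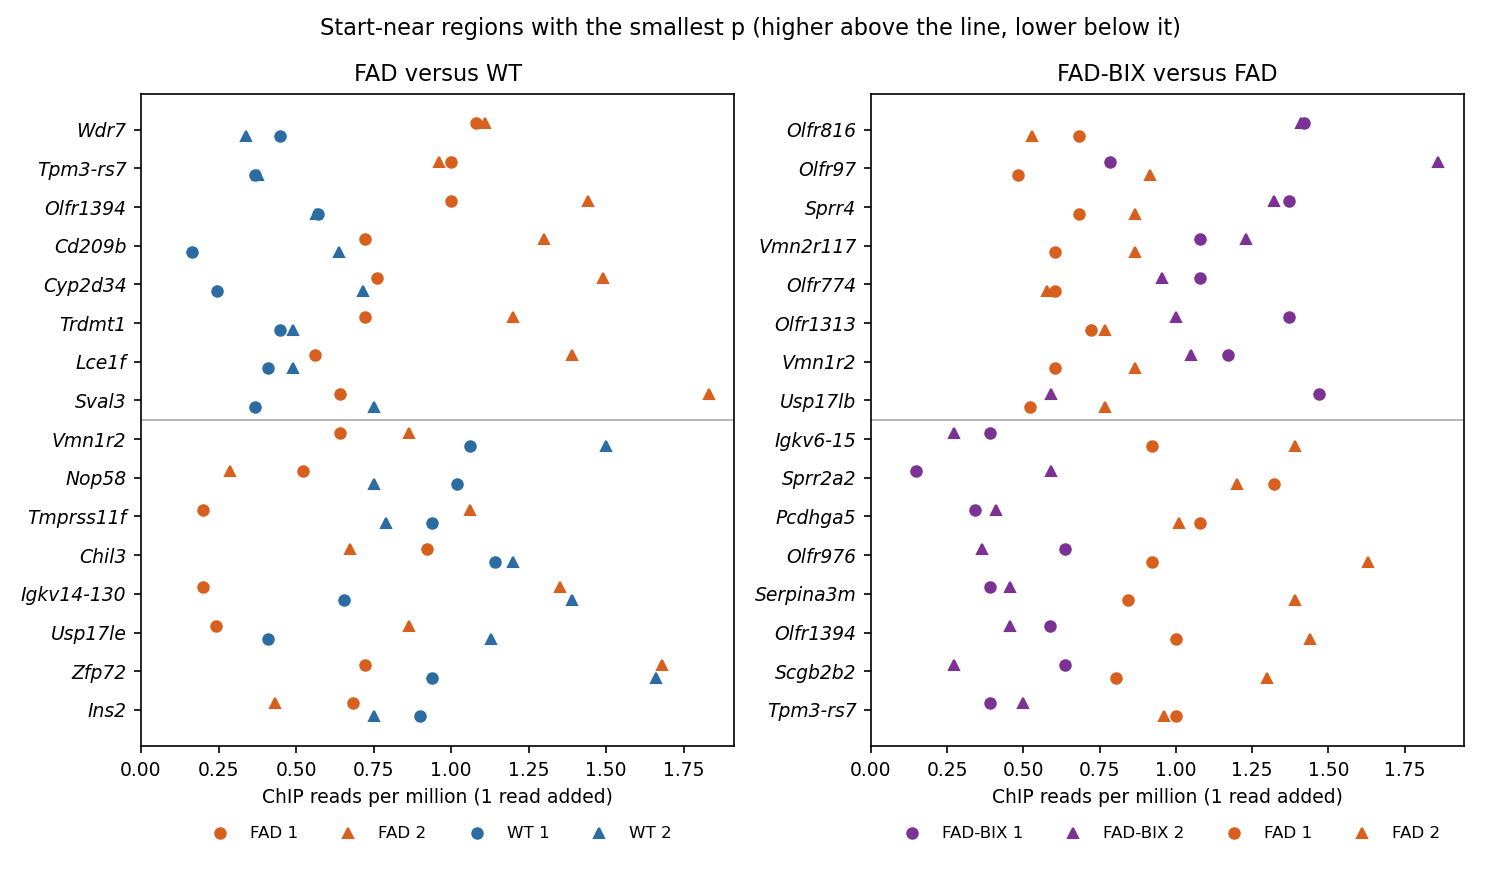
ChIP RPM with 1 read added (horizontal axis) at the named start-near regions (vertical axis) in FAD and WT libraries (left) and FAD-BIX and FAD libraries (right), higher above the line and lower below it by edgeR's log2 fold. Circles are replicate 1 and triangles replicate 2; Wdr7 and Igkv6-15 show groups apart, while at Tmprss11f, Usp17le and Usp17lb they overlap, and none passed the adjusted threshold.

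Without the library labelled FAD 1, edgeR called 1 of 1778 start-near regions in FAD-BIX against FAD (0.0562%), beside 0.0613% of all 42390. Before adjustment 50 (2.81%) were higher, beside 4.21% of all, and 6 (0.337%) lower, beside 0.186%. It was the region at chr2:51730645-51731026, with 65 and 62 reads in FAD-BIX, against 99 and 16 in FAD mice (log2 fold 2.62, adjusted p = 0.0163). Without FAD 2, 4 of 1658 were called (0.241%), beside 0.0581% of all 39564: both Thy1 regions higher, and Nppa and the region in Cep85l lower. Nppa, the atrial natriuretic peptide gene of heart muscle, had 1 and 2 reads in FAD-BIX, against 160 and 4 in FAD mice over chr4:148000770-148001379, and the region in Cep85l had 0 and 4, against 147 and 5. Without FAD-BIX 1, 3 of 1732 were called (0.173%), beside 0.0397% of all 40308, and without FAD-BIX 2, 2 of 1691 (0.118%), beside 0.0301% of all 39816, with Nppa and the region in Cep85l among them each time. All of these except the chromosome 2 region and a region at chr17:13399824-13400215 follow the value of the library labelled FAD 1.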

How the data were processed

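H3K9me2 ChIP and input libraries of 6 mice were analysed. Per the file headers and readme, the authors deposited counts of reads per region and library, RPM (with 1 read added), ratios of ChIP to input RPM as fold enrichment, log2 folds between groups, and p-values and q-values from a test not given in the sources used here. Regions called in each ChIP library were joined before deposit. The submitters' processing notes name FastQC, Trimmomatic, BWA 0.7.12, MACS2 2.1.0 and the build mm9. Coordinates here are as deposited. They match GRCm38, since 99.7% of 3517 and of 4010 genes overlap their RefSeq GRCm38.p6 position, and whether starts count from 0 or 1 is not given. Reads were single-end or paired-end per the labels' protocols, and which library had which is not given.

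Deposited counts were compared with edgeR 4.0.16 (quasi-likelihood, trimmed-mean scaling, filterByExpr, Benjamini-Hochberg over all regions, threshold 0.05) in R 4.3.3, tested on simulated data. The filter on low counts kept 1256 of 1467 and 1373 of 1830 start-near regions. Alternatives were DESeq2 1.42.0, limma 3.58.1, other scalings and filters, and omitted libraries. Start-near and other regions were compared per mouse by an exact sign-flip permutation test. Log2 ratios used RPM with 1 read added, which pulls the ratio of regions with few input reads towards lower values. Genes named with folds were the 8 with the smallest p per direction among regions with at least the median count and 1 direction in both replicate numbers. Others were called in 2 or more libraries, had the highest ratio or RPM, or belonged to a gene list. The members, lists and rules were chosen with earlier results of these data known. Reads are not independent molecules, so counts carry at least counting error.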

Additional observations from a re-analysis of the deposited data

How the results depend on the processing

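In FAD against WT, the count of called start-near regions was 0 under DESeq2, limma, size factors, no filter, autosomes alone and the other distances, classes and thresholds, 1 with library totals, and 0 to 10 with 1 library left out. In FAD-BIX against FAD it was 0 under these settings except 3 with no filter (Thy1 higher, Nppa and the region in Cep85l lower) and 1 to 4 with 1 library left out. With library totals and 1 library left out, settings chosen after seeing the data, the counts were 1 to 3 and 0 to 4. Which libraries decide these calls is given with each comparison, and the cause was not tested. The 3 calls with no filter were among 1830 start-near regions, beside 17 of all 43680 (0.0389%). Library totals with 1 library left out leave 1 mouse in a group. Their counts are given without shares over all regions and do not set start-near regions apart. The difference in ChIP over input between start-near and other regions was -0.13 (adjusted p = 0.0312, exact sign-flip permutation test) with at least 10 ChIP reads in every library, and -0.07 to -0.03 with 1 mouse left out.

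The 32 named log2 folds were chosen for a small p and 1 direction in both replicate numbers, and none passed the adjusted threshold. That choice favours a kept direction, so the counts that follow are no independent check of the folds. Of 512 alternative values of these folds, 504 kept their direction and stayed short of the threshold and 8 reversed, all with library totals and 1 library left out. Without FAD 1 these were Tmprss11f at 0.29, the antibody kappa segment at 0.39, Usp17le at 0.15 and Zfp72 at 0.37. Without WT 2 they were the antibody kappa segment at 0.23, Usp17le at 0.45 and Zfp72 at 0.36, and without FAD-BIX 1 Usp17lb was at -0.13. A replicate block called 0 start-near regions in both comparisons, with unadjusted counts of 13 higher and 57 lower, and 35 higher and 23 lower. The log-scale differences between replicates 1 and 2 of a group correlated with those of the other group at only 0.06 and -0.04. These values gave no sign that the numbers pair the mice, and the labels name no pairing. With 2 mice per group and 11 to 21 reads at the median region, a difference at 1 region was not detectable unless large.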
